A study of Mus musculus with 12 samples.

Results

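Glycolysis, the pentose phosphate pathway and the citrate cycle were followed as a set of 46 genes in natural killer (NK) cells of wild type mice and of mice that lack the microRNA miR-142. The set was given as a list of gene symbols: glucose carriers, the enzymes of each glycolytic step, lactate handling, pyruvate dehydrogenase, the pentose phosphate pathway and the citrate cycle. A gene was read from the probe sets that the platform annotation assigns to its symbol alone, and where a gene had several, the one with the highest mean was used. In this way 42 of the 46 genes were found among 19938 gene symbols. Gpi1, Eno1, G6pdx and Gapdh had no such probe set, and the 25 probe sets that list Gapdh list other genes beside it. Hk2, Eno2 and Ldhb lay below the filter on low signal, which left 39 of 11963 tested genes. Hexokinase, enolase and lactate dehydrogenase are therefore covered only in part.

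Glycolysis splits glucose into pyruvate and yields ATP without oxygen. The pentose phosphate pathway branches off at glucose 6-phosphate and makes NADPH and ribose for nucleotides, and the citrate cycle oxidises the acetyl group made from pyruvate in the mitochondrion. Resting NK cells burn glucose and other fuels at a low rate, and NK cells that are activated or divide raise glucose uptake, glycolysis and mitochondrial respiration together.

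The groups were wild type spleen, miR-142 knockout spleen, wild type bone marrow and miR-142 knockout bone marrow, with 3 arrays each, which the labels call biological replicates. All mice were of strain C57BL6 and 7 to 10 weeks old, and wild type and knockout mice were matched for age and sex. NK cells were sorted as CD3-negative and NK1.1-positive, no treatment was given, and the labels describe the knockout only by its genotype, without naming a promoter or cell type to which it is limited. Whether arrays of the same replicate number came from the same animal is not given in the sources used here, so p-values measure the spread between these samples. The values are log2 signals of a sorted population, in which fewer cells of a type and less RNA per cell cannot be told apart.

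The microRNA that defines the groups gives 2 mature strands from 1 hairpin on chromosome 11. They are shown as the sequences the knockout mice lack, from RefSeq on GRCm38.p6, with the seed (bases 2 to 8), which pairs with target RNAs, in capitals. The 5p strand lies at chr11:87756867-87756887 and the 3p strand at chr11:87756903-87756925, both on the plus strand.
mmu-miR-142a-5p: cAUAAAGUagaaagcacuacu
mmu-miR-142a-3p: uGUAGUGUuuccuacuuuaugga
The Mir142 probe set read 6.77, 7.17 and 7.58 in wild type spleen, 4.05, 4.59 and 4.50 in knockout spleen, 7.10, 8.25 and 7.14 in wild type marrow and 4.69, 4.70 and 4.26 in knockout marrow. The genotypes did not overlap in either tissue, as the labels require. The array medians lay between 5.75 and 5.87. All 10 NK cell markers listed as a check of the sort were tested, among them Ncr1, Klrb1c and Eomes, and their mean level per array ran from 11.27 to 11.68 over the 12 arrays. Judged by the number each label gives its array, there were 2 consecutive runs, with 7 and 5 arrays, and the run was a covariate of the fit. The labels do not say what these numbers stand for. In spleen the first run held 2 wild type arrays and 1 knockout array, and the second 1 wild type and 2 knockout arrays. In marrow the first run held 1 wild type and 3 knockout arrays, and the second only wild type arrays. Each difference given within a run below therefore rests on 1 array in 1 of its groups.

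The first question was whether loss of miR-142 went with a change in the glucose pathways. Over both tissues 8 of the 39 tested genes passed, beside a background of 19.1% of all tested genes. In knockout cells 4 of them were higher (background 8.81%) and 4 lower (background 10.3%). The largest change was a fall of Pfkp, the platelet-type phosphofructokinase, to a level 1.81-fold below wild type. Its muscle-type counterpart Pfkm rose, as did the mitochondrial dehydrogenases Idh2 and Mdh2 and the aldolase Aldoa, while the glucose carrier Slc2a1, the hexokinase Hk3 and the mutase Pgam1 fell. The median difference of the 39 genes was 0.02 on the log2 scale, beside -0.01 for all tested genes, and 20 of the 39 were above 0. The count over both tissues was 5 without wild type spleen 2, wild type marrow 1, knockout marrow 2 or knockout marrow 3. A gene is said to rise, fall or pass where its Benjamini-Hochberg adjusted p over all tested genes in limma was below 0.05.

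**Figure D1:**
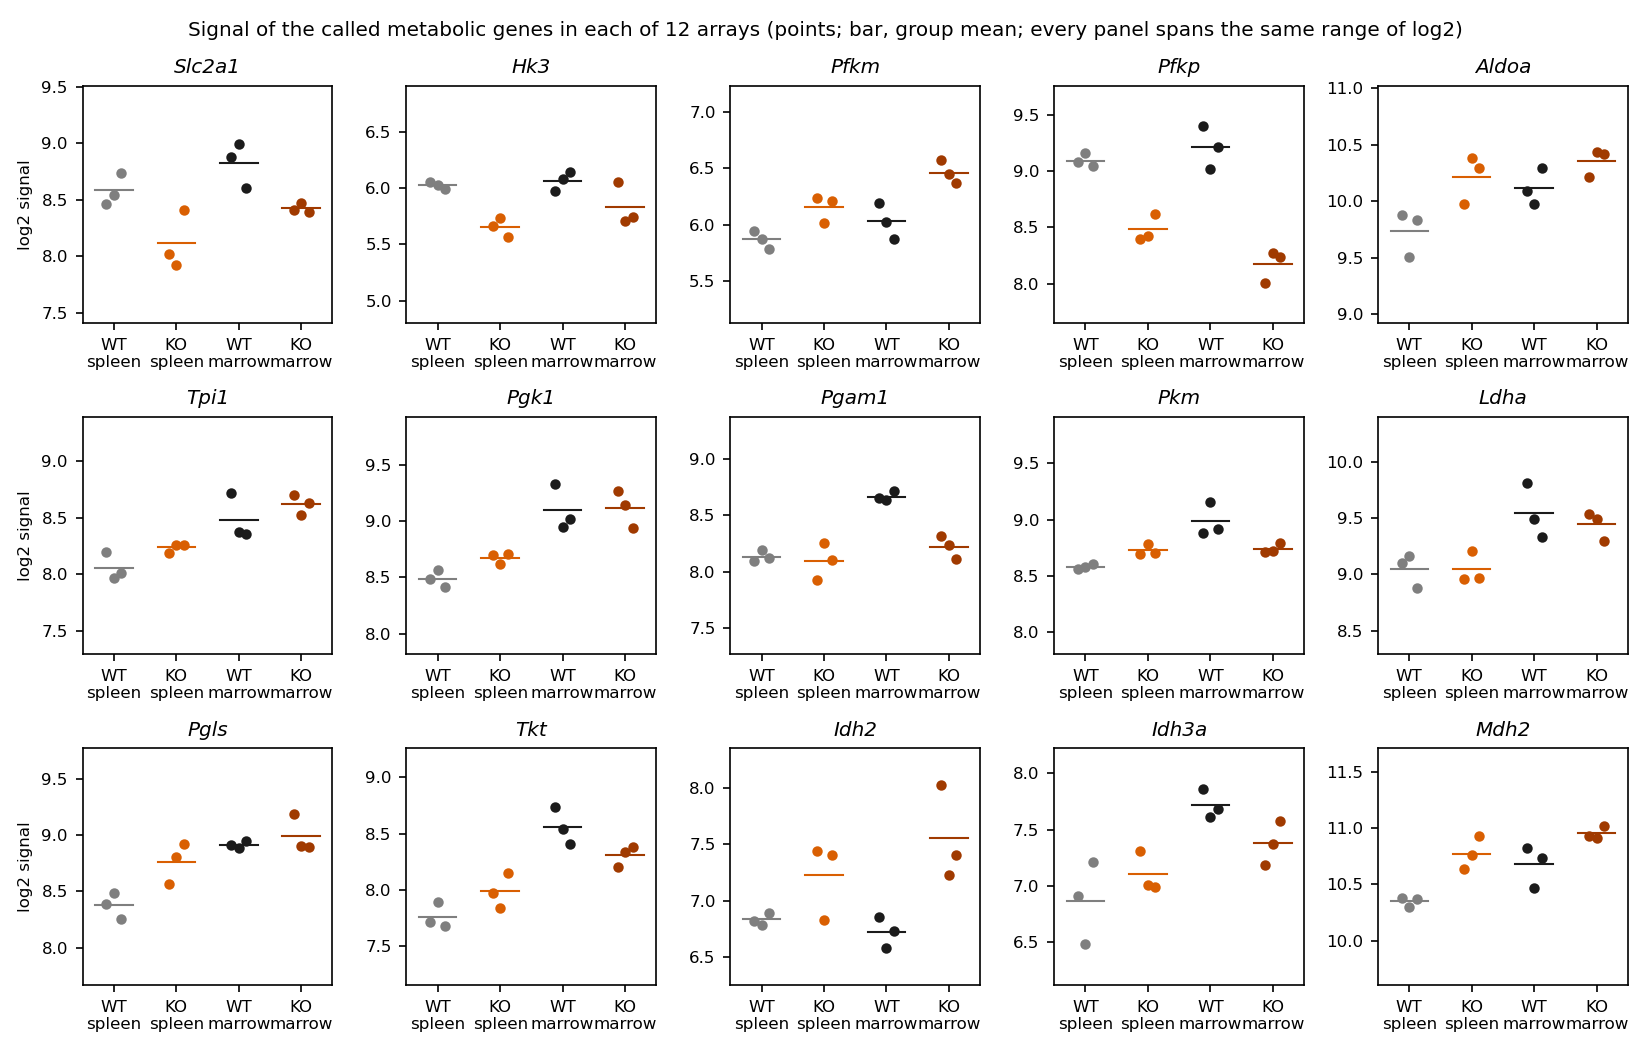
Log2 signal of the 15 genes that passed in at least 1 of 6 comparisons, with a panel per gene, the 4 groups on the horizontal axis, a point per array and a bar at the group mean. Pfkp lies between 9.02 and 9.40 in the 6 wild type arrays and between 8.01 and 8.62 in the 6 knockout arrays, and Tkt lies higher in all 3 wild type marrow arrays than in any other array.

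Glucose enters the cell through the carriers GLUT1 (Slc2a1) and GLUT3 (Slc2a3). Slc2a1 read 8.47, 8.54 and 8.74 in wild type spleen, 8.02, 7.92 and 8.41 in knockout spleen, 8.88, 8.998 and 8.60 in wild type marrow and 8.41, 8.47 and 8.39 in knockout marrow. All knockout arrays of a tissue were below all wild type arrays of that tissue. The difference was -0.45 ± 0.10 over both tissues (log2 ± standard error, 1.37-fold, adjusted p = 0.0092). It was -0.44 in spleen and -0.46 in marrow, where it did not pass in either tissue alone, and within the runs of array numbers the spleen difference was -0.10 and -0.77. The call was lost only without wild type and knockout marrow 1 together (adjusted p = 0.0517), an alternative chosen after seeing the data. Slc2a3 differed by -0.10 ± 0.10 over both tissues and did not pass.

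The first step, phosphorylation of glucose, is done by hexokinases, of which Hk3 is typical of myeloid cells. Hk3 read 6.05, 6.03 and 5.99 in wild type spleen and 5.66, 5.73 and 5.57 in knockout spleen. In marrow it read 5.97, 6.08 and 6.14 in wild type and 6.05, 5.71 and 5.75 in knockout, so the genotypes overlapped there. It fell by 0.39 ± 0.11 in spleen (adjusted p = 0.0498) and by 0.29 ± 0.08 over both tissues (adjusted p = 0.0233). Within the runs the difference was -0.48 and -0.29 in spleen and -0.14 in marrow. The monocyte markers Ms4a6c and Ccr2 fell in knockout spleen too, by 1.29 and 1.33, while the remaining 1 of the 3 such markers tested was above 0. All 9 tested granulocyte markers were above 0 there as well. The part of the monocyte markers in the fall of Hk3 was not tested. The spleen call was lost in 16 of 24 alternatives, including without any 1 of the 6 spleen arrays, with adjusted p up to 0.226. The call over both tissues was lost without wild type spleen 1 or 2, wild type marrow 1 or knockout marrow 2 or 3, with adjusted p from 0.0505 to 0.0667, and with the granulocyte marker level as a covariate (adjusted p = 0.155). Hk1, the widely expressed hexokinase, differed by 0.03 ± 0.09 over both tissues. Its 2 probe sets read about 11.2 and 7.18 in wild type spleen, and the knockout minus wild type difference was between -0.01 and 0.16 for both probe sets in both tissues. The first of these, which the fit used, may read another transcript, and its specificity for Hk1 was not tested.

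Phosphofructokinase commits glucose to glycolysis and is built from liver-type (Pfkl), muscle-type (Pfkm) and platelet-type (Pfkp) subunits. Pfkp was lower, Pfkm higher and Pfkl near its wild type level in knockout cells. Pfkp read 9.08, 9.16 and 9.04 in wild type spleen and 8.40, 8.42 and 8.62 in knockout spleen. In marrow it read 9.40, 9.02 and 9.21 in wild type and 8.01, 8.28 and 8.24 in knockout, and no knockout array reached a wild type array in either tissue. Pfkp fell by 0.55 ± 0.11 in spleen (1.46-fold, adjusted p = 0.00784), by 1.16 ± 0.12 in marrow (2.24-fold, adjusted p = 0.000122) and by 0.86 ± 0.08 over both tissues (adjusted p = 1.09e-05). The marrow effect minus the spleen effect was -0.61 ± 0.17, with an unadjusted p of 0.00419 and an adjusted p = 0.315, and did not pass. Within the runs the difference was -0.50 and -0.63 in spleen and -1.22 in marrow. In marrow only the first run held both genotypes, with 1 wild type array (9.40). The marrow and pooled calls held in every alternative tried, and the spleen call was lost without wild type spleen 3 (adjusted p = 0.0885) and with the granulocyte marker level as a covariate (adjusted p = 0.178).

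Pfkm went the other way. It read 5.95, 5.87 and 5.79 in wild type spleen, 6.23, 6.02 and 6.21 in knockout spleen, 6.19, 6.02 and 5.87 in wild type marrow and 6.57, 6.45 and 6.36 in knockout marrow, with every knockout array above every wild type array of its tissue. Pfkm rose by 0.33 ± 0.07 over both tissues (1.26-fold, adjusted p = 0.00726), with a difference of 0.33 in spleen and 0.33 in marrow, and between 0.27 and 0.34 within the runs. The call was lost only with the granulocyte marker level as a covariate (adjusted p = 0.051). Pfkl differed by 0.04 over both tissues and its 12 arrays lay between 5.97 and 6.51. Pfkfb3, which makes the fructose 2,6-bisphosphate that activates phosphofructokinase, differed by -0.55 ± 0.18 in marrow and -0.32 ± 0.11 over both tissues and did not pass (adjusted p = 0.0808 and 0.0687). Without the run covariate it passed in marrow and over both tissues.

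Because Pfkp had the largest change of the set, its promoter window is shown (RefSeq, GRCm38.p6, 250 bases before to 50 after the transcript start, chr13:6648722-6649021, minus strand). Capitals mark the letters GCGTG on either strand, a core that the hypoxia factor HIF-1 reads, which occur 4 times. The other HIF-1 core, spelled ACGTG, is not in this window, and so neither is the longer E box of MYC and its relatives, spelled CACGTG.
Pfkp: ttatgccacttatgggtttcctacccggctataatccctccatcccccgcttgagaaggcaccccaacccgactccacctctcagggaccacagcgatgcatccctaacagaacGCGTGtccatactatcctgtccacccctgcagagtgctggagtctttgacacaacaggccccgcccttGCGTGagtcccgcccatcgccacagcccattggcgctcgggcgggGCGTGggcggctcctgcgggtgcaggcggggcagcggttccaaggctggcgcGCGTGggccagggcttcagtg
GCGTG was in 53.8% of the 13 windows of the 8 genes that passed over both tissues. It was in 60.9% of the windows of the set and in 32.4% of all windows. A gene can have several windows, some overlapping. Counted by gene, GCGTG was in 6 of the 8, in 30 of 44 of the set and in 9500 of all 27025. A match of letters describes the window and does not show a bound site.

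Aldolase cuts fructose 1,6-bisphosphate, and Aldoa is its form in most cells. Aldoa read 9.88, 9.50 and 9.84 in wild type spleen, 9.97, 10.38 and 10.30 in knockout spleen, 10.09, 9.97 and 10.29 in wild type marrow and 10.22, 10.44 and 10.42 in knockout marrow. The spleen groups stood apart and the marrow groups overlapped. Aldoa rose by 0.36 ± 0.10 over both tissues (1.29-fold, adjusted p = 0.0302), and within the runs the difference was 0.61 and 0.34 in spleen and 0.27 in marrow. The call was lost without wild type spleen 2, knockout spleen 2 or 3, wild type marrow 1 or 2, or knockout marrow 2 or 3, with adjusted p up to 0.0943. It was lost as well with the granulocyte level as a covariate (adjusted p = 0.0622) and without both marrow 1 arrays (adjusted p = 0.0808). Aldoc, its relative in brain, and Tpi1, which interconverts the triose phosphates, did not pass in the knockout comparisons (0.06 and 0.13 over both tissues).

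In lower glycolysis Pgam1, the phosphoglycerate mutase, was the only tested gene of 4 that passed. It read 8.09, 8.19 and 8.12 in wild type spleen and 7.93, 8.25 and 8.11 in knockout spleen, with overlap. In marrow it read 8.65, 8.63 and 8.71 in wild type and 8.31, 8.24 and 8.11 in knockout, with none. Pgam1 fell by 0.45 ± 0.12 in marrow (1.37-fold, adjusted p = 0.0418) and by 0.24 ± 0.08 over both tissues (adjusted p = 0.0434). Within the runs the difference was -0.03 and -0.03 in spleen and -0.43 in marrow. The marrow call was lost in 17 of 24 alternatives, with adjusted p = 0.189 without wild type marrow 1 and 0.714 with the granulocyte marker level as a covariate. The pooled call was lost in 19 of 23, among them without any 1 of 10 arrays (all but knockout spleen 2 and knockout marrow 1), with adjusted p up to 0.111. The probe set used for Pgam1 has a twin with the same mean in every group, and the remaining probe set gave -0.51 in marrow and 0.05 in spleen. Pgk1, Eno3 and Pkm, which encode the kinase, an enolase and pyruvate kinase, differed by 0.07, -0.03 and -0.04 over both tissues and did not pass.

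Lactate dehydrogenase A (Ldha) and the monocarboxylate carriers Slc16a1 (MCT1) and Slc16a3 (MCT4) finish fermentation by making and exporting lactate. None of the 3 passed in a knockout comparison, with differences of -0.08, -0.15 and 0.04 over both tissues. Slc16a1 had the widest spread of the tested set: 5.28, 5.58 and 5.36 in wild type spleen, 5.06, 6.14 and 5.48 in knockout spleen, 6.88, 5.79 and 5.65 in wild type marrow and 6.15, 5.46 and 5.72 in knockout marrow. Its standard error over both tissues was 0.22, and the interval of its difference ran from -0.63 to 0.33. At the gate to the citrate cycle, the pyruvate dehydrogenase subunits Pdha1 and Pdhb and the kinase Pdk1, which switches the enzyme off, differed by 0.13, -0.06 and 0.02 and did not pass.

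In the pentose phosphate pathway Pgls, the lactonase of the second step, rose in knockout spleen. It read 8.38, 8.49 and 8.26 in wild type spleen and 8.56, 8.81 and 8.92 in knockout spleen, with no overlap, and 8.92, 8.88 and 8.95 in wild type and 9.18, 8.90 and 8.90 in knockout marrow, with overlap. The spleen difference was 0.43 ± 0.12 (1.35-fold, adjusted p = 0.0396). Within the runs it was 0.49 and 0.43. The marrow difference was -0.01, and the effects in the tissues differed by -0.45 ± 0.19 (adjusted p = 0.514), which did not pass. The spleen call was lost without wild type spleen 1, 2 or 3, knockout spleen 2 or 3, wild type marrow 2 or knockout marrow 2, with adjusted p up to 0.221. It was also lost with the granulocyte (adjusted p = 0.509) or cell cycle level (0.071) as a covariate, with the replicate block (0.061), without the run covariate (0.0557), without a filter (0.0579) and with spleen fitted alone without the run covariate (0.0936), or in 13 of 24 alternatives. Pgd, Tkt, Taldo1 and Rpia did not pass in the knockout comparisons.

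In the citrate cycle 2 of 13 genes rose over both tissues and 0 fell, beside backgrounds of 8.81% and 10.3%, so the count is near the background. Idh2, the mitochondrial NADP-dependent isocitrate dehydrogenase, read 6.82, 6.79 and 6.89 in wild type spleen, 7.45, 6.83 and 7.40 in knockout spleen, 6.86, 6.58 and 6.73 in wild type marrow and 8.03, 7.23 and 7.41 in knockout marrow. The marrow groups stood apart, while knockout spleen 2 lay inside the wild type range of its tissue. Idh2 rose by 0.59 ± 0.15 over both tissues (1.51-fold, adjusted p = 0.0139), a call lost only with the granulocyte marker level as a covariate (adjusted p = 0.0522). Within the runs it differed by 0.60 and 0.24 in spleen and 0.70 in marrow. Mdh2, the mitochondrial malate dehydrogenase of the last step, read 10.38, 10.30 and 10.37 in wild type spleen, 10.63, 10.76 and 10.92 in knockout spleen, 10.82, 10.47 and 10.74 in wild type marrow and 10.93, 10.91 and 11.02 in knockout marrow. Every knockout array was above every wild type array of its tissue. Mdh2 rose by 0.47 ± 0.11 in spleen (adjusted p = 0.0196) and by 0.33 ± 0.08 over both tissues (1.26-fold, adjusted p = 0.0103). Within the runs it differed by 0.59 and 0.33 in spleen and 0.13 in marrow. The spleen call of Mdh2 was lost with the granulocyte marker level as a covariate (adjusted p = 0.264) and without wild type spleen 1 or 2 or knockout spleen 2 or 3 (adjusted p from 0.0504 to 0.143), and the pooled call held in all 23 alternatives. The cytosolic counterparts Idh1 and Mdh1 differed by 0.31 and -0.06 over both tissues and did not pass.

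**Figure D2:**
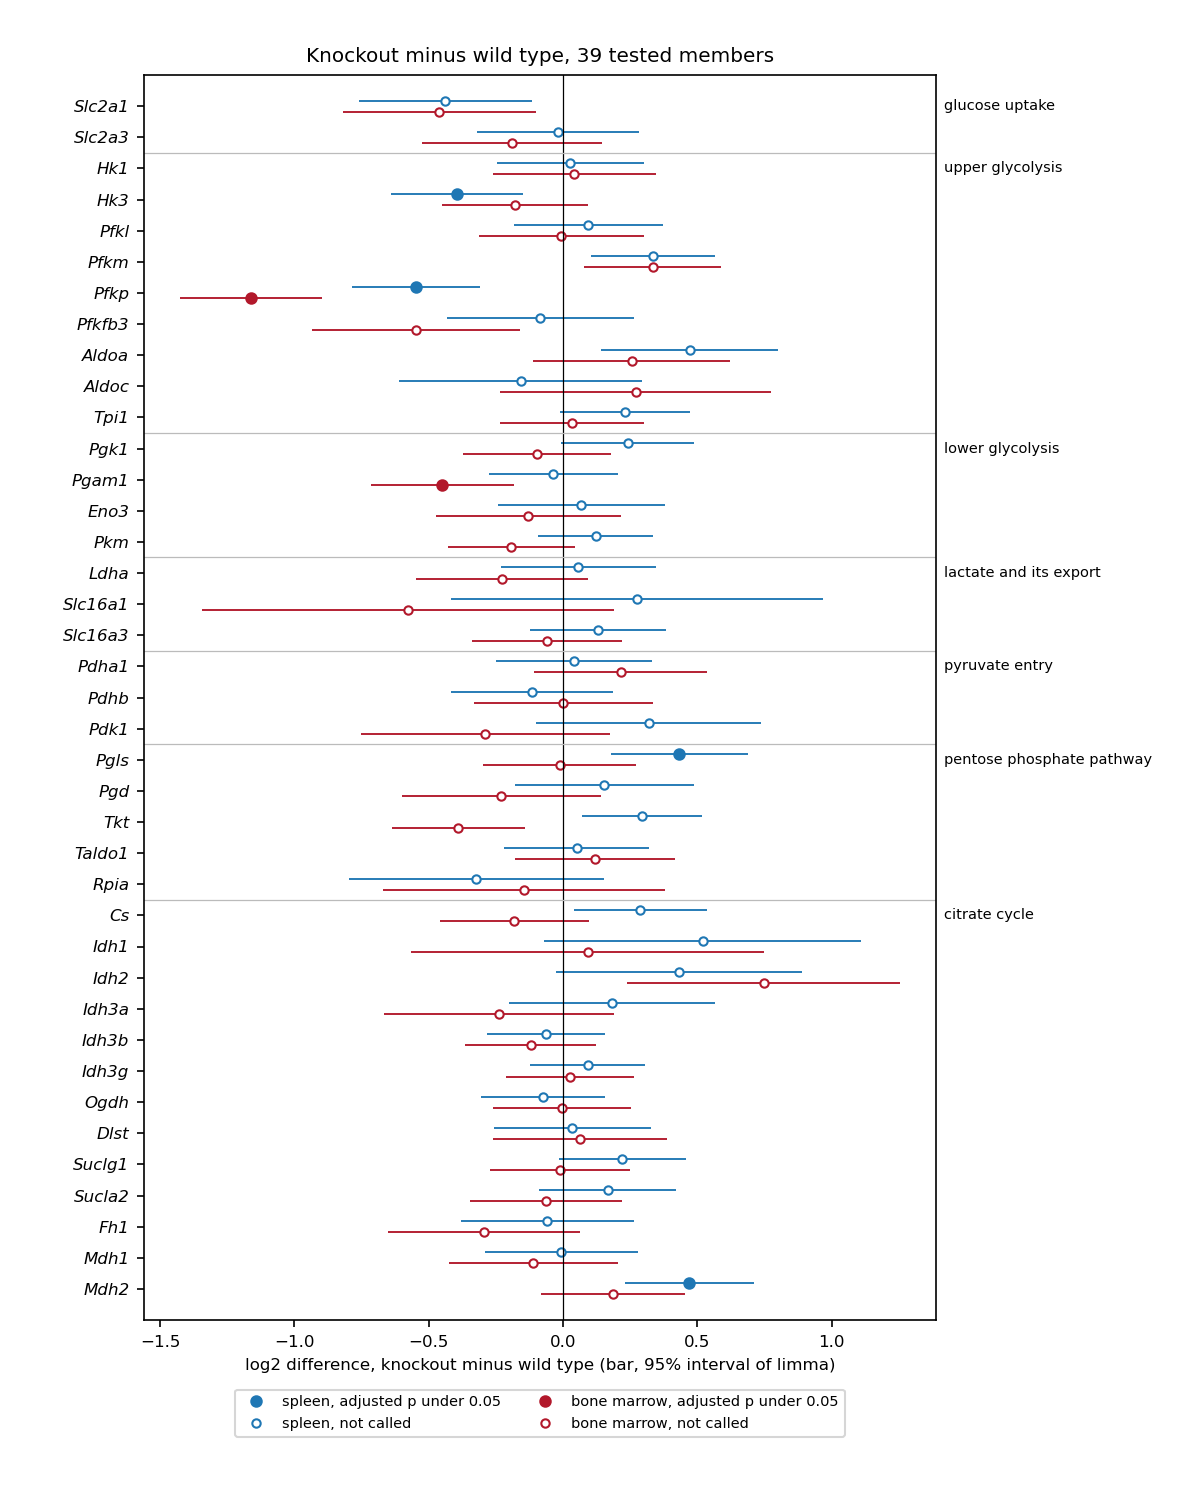
Knockout minus wild type difference on the log2 scale for the 39 tested genes, grouped by role, in spleen (blue) and bone marrow (red), with the 95% interval of limma and filled points where the adjusted p was below 0.05. Pfkp is filled in both tissues, at -0.55 and -1.16, Hk3, Pgls and Mdh2 are filled in spleen and Pgam1 in marrow.

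Tissue by tissue, 4 of 39 genes passed in spleen (10.3%), beside a background of 9.11%. Pgls and Mdh2 were higher (background 5.48%) and Hk3 and Pfkp lower (background 3.63%). In marrow 2 of 39 passed (5.13%), beside a background of 8.65%: Pfkp and Pgam1 were lower (background 4.73%) and 0 were higher in limma (background 3.92%). Those shares lie near the background. Without the run covariate Idh2 and Pfkm were also higher in knockout marrow and Pfkfb3 lower. Idh2 passed there too with the replicate block, median centring or the cell cycle level as a covariate. The count in spleen was 1 without wild type spleen 1, 2 or 3 or knockout spleen 2, and 2 without knockout spleen 3, wild type marrow 2 or knockout marrow 2. In marrow it was 1 without wild type spleen 1 or 2, knockout spleen 3, wild type marrow 1 or 3, or knockout marrow 3. The 35 genes that did not pass in spleen differed by -0.44 (Slc2a1) to 0.52 (Idh1), and the 37 in marrow by -0.58 (Slc16a1) to 0.75 (Idh2). The typical half-width of the 95% interval, which is not adjusted for the number of genes, was 0.28 in spleen and 0.31 in marrow. Smaller changes were therefore not resolved, and several larger ones did not pass the adjusted threshold either. The median difference was 0.09 in spleen and -0.10 in marrow, beside -0.01 for all tested genes in each tissue. Knockout and wild type arrays were fully separate for 12 genes in spleen, against 28.0% of all tested genes, and for 11 in marrow, against 34.2%. The number of genes above 0 was 26 of 39 in spleen and 13 of 39 in marrow. The share of all tested genes above 0 is not given here. The difference between the tissues passed for 0 genes in limma, beside a background of 0.00836%. At an unadjusted p under 0.05 in limma were 5 genes (Pfkp, Pgam1, Pgls, Tkt and Cs). No share of all tested genes at that unadjusted level is given here.

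Markers of other cells also differed between the genotypes, and some cell cycle genes passed in marrow but none in spleen. In knockout spleen all 9 tested granulocyte markers were above 0, with a median of 0.40, but only S100a8 rose. Of 7 T cell markers 2 (Cd3d and Cd28) fell. These shares are 11.1% and 28.6%, beside a background of 9.11%. The median of the 17 cell cycle genes was 0.43 there, and 0 of them passed. In knockout marrow 4 of 17 cell cycle genes, 4 of 9 granulocyte markers and 4 of 7 T cell markers fell and none of these rose. The medians were -0.757, -1.20 and -1.0005, and the shares 23.5%, 44.4% and 57.1%, beside a background of 8.65%. The T cell list had a mean level of 7.30 to 7.44 in wild type marrow and 6.55 to 6.81 in knockout marrow, and the CD3 gene Cd3d fell by 3.14 there in cells sorted as CD3-negative. Of 5 tested dendritic cell markers 3 (60.0%) rose in knockout spleen (Itgax, H2-Aa and H2-Ab1, by 1.36, 2.00 and 1.66). Zbtb46 and Batf3 were at -0.07 and -0.32 there and did not pass, and Batf3 fell by 0.37 over both tissues. The mean of that list was 5.96 to 6.18 in wild type and 6.42 to 6.51 in knockout spleen. NK cells can carry several of these transcripts themselves. The part of these shifts in the values of Pfkp, Pgam1, Hk3, Pgls and Mdh2 was not tested. The granulocyte level was 6.69 to 6.89 in wild type and 5.64 to 6.19 in knockout marrow, so there it and the genotype cannot be told apart. In spleen it was 5.21 to 5.58 in wild type and 5.51 to 5.98 in knockout, with little overlap. A call lost with this level as a covariate therefore does not decide the part of granulocytes.

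The second question was whether the glucose pathways differed between marrow and spleen NK cells. In wild type, 8 of 39 genes passed (20.5%), beside a background of 5.37%. All 8 were higher in marrow (background 4.34%) and 0 lower in limma (background 1.04%). In limma 19 of the 39 had an unadjusted p under 0.05, without a share of all tested genes at that level given here. The 8 were Tpi1, Pgk1, Pgam1 and Pkm of glycolysis, Ldha of lactate production, Pgls and Tkt of the pentose phosphate pathway, and Idh3a of the citrate cycle. None of the 2 glucose carriers or the 3 genes of pyruvate entry passed. The median of the 39 genes was 0.27 higher in marrow, beside -0.02 for all tested genes, and 32 of 39 were above 0. The arrays of the tissues stood apart for 19 genes, all higher in marrow, against 31.6% of all tested genes in either direction.

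Tkt, the transketolase that links the pentose phosphates back to glycolysis, had the largest difference that passed. It read 7.71, 7.89 and 7.68 in wild type spleen and 8.73, 8.54 and 8.41 in wild type marrow, a difference of 0.87 ± 0.10 (1.82-fold, adjusted p = 0.00125). All marrow arrays were above all spleen arrays. Pgls, of the oxidative branch of the same pathway, read 8.38, 8.49 and 8.26 against 8.92, 8.88 and 8.95 (0.58 ± 0.12, adjusted p = 0.0171). Of the remaining pentose phosphate genes, Pgd, an NADPH-yielding dehydrogenase, differed by 0.42 ± 0.15 and did not pass (adjusted p = 0.131), and Taldo1 and Rpia differed by 0.15 and -0.004.

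Of the glycolytic genes that passed, none differed by as much as Tkt. Pgk1, the kinase of the first ATP-yielding step, read 8.49, 8.57 and 8.41 in wild type spleen and 9.33, 8.94 and 9.02 in wild type marrow (0.66 ± 0.11, 1.58-fold, adjusted p = 0.00802). Tpi1 read 8.20, 7.97 and 8.01 against 8.72, 8.37 and 8.35 (0.48 ± 0.11, adjusted p = 0.031), and Pgam1 8.09, 8.19 and 8.12 against 8.65, 8.63 and 8.71 (0.53 ± 0.11, adjusted p = 0.0187). Marrow and spleen arrays did not overlap for any of these 3 genes. Pkm, pyruvate kinase, read 8.56, 8.58 and 8.60 against 8.88, 9.15 and 8.92, a difference of 0.38 ± 0.10 (adjusted p = 0.0461). Ldha read 9.10, 9.17 and 8.88 against 9.81, 9.49 and 9.34 (0.56 ± 0.13, 1.47-fold, adjusted p = 0.0323). For Pgk1 the probe set used has a twin with the same group means, and the remaining probe set gave 8.93 in wild type marrow and 8.35 in wild type spleen. These enzymes have processed pseudogenes and near-identical copies in the mouse genome, so part of a signal can come from another locus.

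In the citrate cycle Idh3a, the catalytic subunit of the NAD-dependent isocitrate dehydrogenase, read 6.91, 6.48 and 7.22 in wild type spleen and 7.86, 7.61 and 7.69 in wild type marrow. The difference was 0.80 ± 0.18 (1.74-fold, adjusted p = 0.0252), and wild type spleen 3 was the spleen array nearest to marrow. The other subunits Idh3b and Idh3g differed by 0.12 and 0.25 and did not pass. Cs, the citrate synthase, missed the threshold with 0.42 ± 0.11 (adjusted p = 0.0558), and Suclg1 and Mdh2 stood at 0.36 and 0.37 (adjusted p = 0.0748 and 0.0736). The subunits of the oxoglutarate dehydrogenase complex, Ogdh and Dlst, lay at -0.07 and 0.02.

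**Figure D3:**
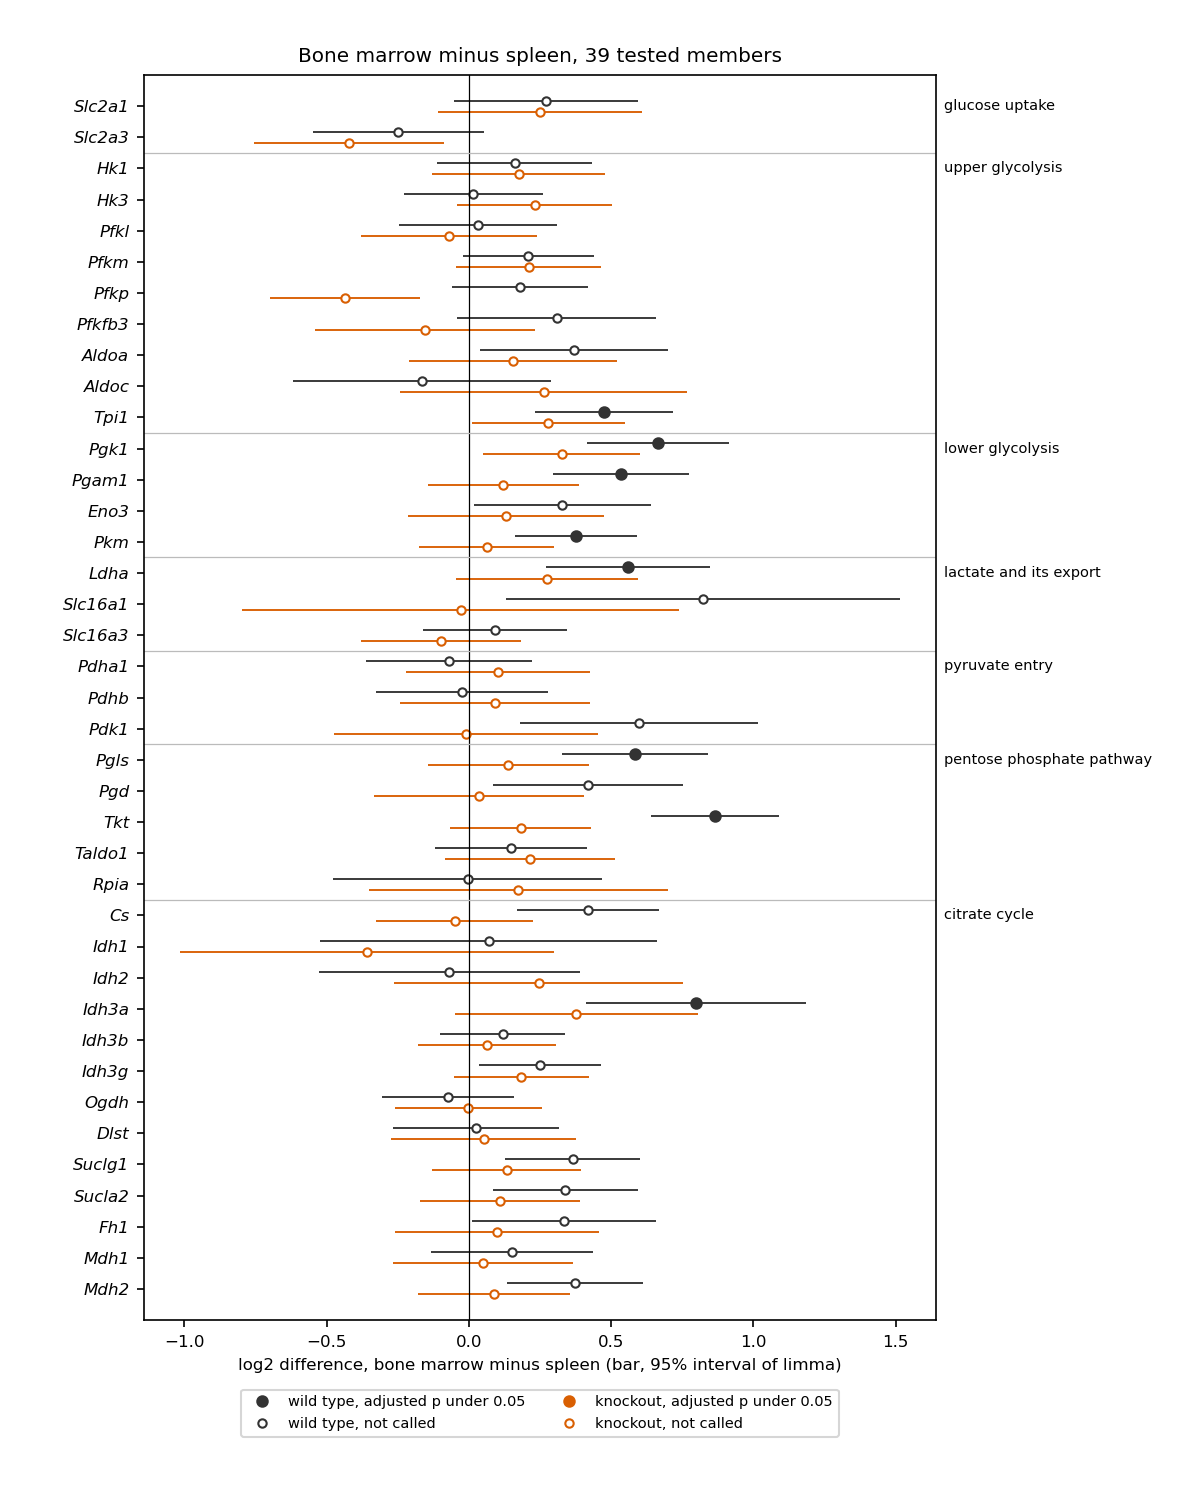
Bone marrow minus spleen difference on the log2 scale for the 39 tested genes, grouped by role, in wild type (dark) and knockout (orange), with the 95% interval of limma and filled points where the adjusted p was below 0.05. The 8 filled points are all wild type and run from 0.38 (Pkm) to 0.87 (Tkt), and no knockout point is filled.

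Because 5 of the 8 genes that were higher in wild type marrow encode enzymes between the triose phosphates and lactate, promoter windows of 3 of these are shown (RefSeq, GRCm38.p6, 250 bases before to 50 after the transcript start). The upstream of the 2 Ldha windows lies at chr7:46845554-46845853, Pgk1 at chrX:106186850-106187149 and Pgam1 at chr19:41911621-41911920, all on the plus strand. Capitals mark the E box, spelled CACGTG, and both HIF-1 cores on either strand. Each E box also holds the core spelled ACGTG and was counted under both.
Ldha: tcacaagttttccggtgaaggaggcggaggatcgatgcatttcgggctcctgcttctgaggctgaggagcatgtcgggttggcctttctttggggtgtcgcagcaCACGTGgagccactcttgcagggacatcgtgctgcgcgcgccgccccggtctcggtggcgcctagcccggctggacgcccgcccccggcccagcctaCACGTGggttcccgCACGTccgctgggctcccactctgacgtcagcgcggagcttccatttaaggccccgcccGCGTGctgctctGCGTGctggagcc
Pgk1: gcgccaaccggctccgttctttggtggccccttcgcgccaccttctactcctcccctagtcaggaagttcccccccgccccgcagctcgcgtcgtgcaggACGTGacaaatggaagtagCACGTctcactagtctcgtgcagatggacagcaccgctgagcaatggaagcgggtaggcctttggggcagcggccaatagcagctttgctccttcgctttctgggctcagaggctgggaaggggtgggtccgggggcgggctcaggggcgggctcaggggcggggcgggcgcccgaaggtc
Pgam1: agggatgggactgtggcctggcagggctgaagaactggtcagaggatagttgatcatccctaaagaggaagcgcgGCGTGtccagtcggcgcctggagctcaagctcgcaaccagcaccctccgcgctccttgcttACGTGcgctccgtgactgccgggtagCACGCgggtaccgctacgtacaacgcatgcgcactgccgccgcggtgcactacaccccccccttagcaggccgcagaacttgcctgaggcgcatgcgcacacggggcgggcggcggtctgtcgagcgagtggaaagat
The windows shown were chosen among those that hold a motif: the Tpi1 window and 1 of the 2 Pkm windows hold none of the 3. The Ldha window holds CACGTG at 2 places, and Pgk1 and Pgam1 hold ACGTG but not CACGTG. Windows were found for 44 of the 46 genes, 64 in all, and 43.8% of them held ACGTG and 60.9% GCGTG, against 19.6% and 32.4% of all 32851 windows. CACGTG was in 10.9% of the windows of the set and 7.15% of all. Among the 9 windows of 7 genes higher in wild type marrow, 44.4% held ACGTG and 55.6% GCGTG, near the shares of the whole set. The windows of the set had a median GC content of 60.7% against 52.7%, and all 3 motifs contain CG. A role of base composition in these shares was not tested.

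Other genes moved with the same tissue contrast, and their values stand beside it. Of 17 tested cell cycle genes 14 were higher in wild type marrow, with a median of 1.35, and the mean of the list ran from 6.88 to 7.41 in wild type spleen, 7.26 to 7.57 in knockout spleen, 8.23 to 9.06 in wild type marrow and 7.32 to 8.80 in knockout marrow. Of 15 granulocyte markers 9 were tested and 7 were higher in wild type marrow, with a median of 2.03. The mean of that list was 5.21 to 5.58 in wild type spleen, 5.51 to 5.98 in knockout spleen, 6.69 to 6.89 in wild type marrow and 5.64 to 6.19 in knockout marrow. Of 7 tested T cell markers 3 were higher in wild type marrow (Cd3d, Cd3e and Cd3g, by 1.88, 1.46 and 1.95), and the list mean was 6.81 to 6.89 in wild type spleen and 7.30 to 7.44 in wild type marrow. All 10 NK cell markers were below 0, with a median of -0.24, and Prf1 and Gzma fell. The part of the T cell and NK cell markers in the 8 differences was not tested. The granulocyte markers Ltf, Cxcr2, Ly6g, Mmp8, Mmp9 and Csf3r lay below the filter. With the cell cycle level of each array as a covariate the 8 genes kept a positive difference of 0.24 to 1.00, their standard errors grew to between 0.19 and 0.34, and none passed (limma, adjusted p from 0.0995 to 0.791). With the granulocyte level as a covariate the differences were 0.08 to 1.17, with standard errors of 0.32 to 0.57, and none passed either. Both levels separate wild type marrow from wild type spleen, so in wild type they and the tissue cannot be told apart.

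The count of 8 in wild type changed with single arrays left out. It was 1 without wild type marrow 1, 5 without wild type marrow 2, and 2, 4 and 2 without wild type spleen 1, 2 and 3, and Tkt passed in each of these. The call of Pkm was lost in 21 of 23 alternatives, with adjusted p up to 0.895, and those of Tpi1 and Ldha in 10 of 23 each. Within the first run of array numbers the 8 differences lay between 0.31 and 1.16, and within the second between 0.35 and 0.79.

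**Figure D4:**
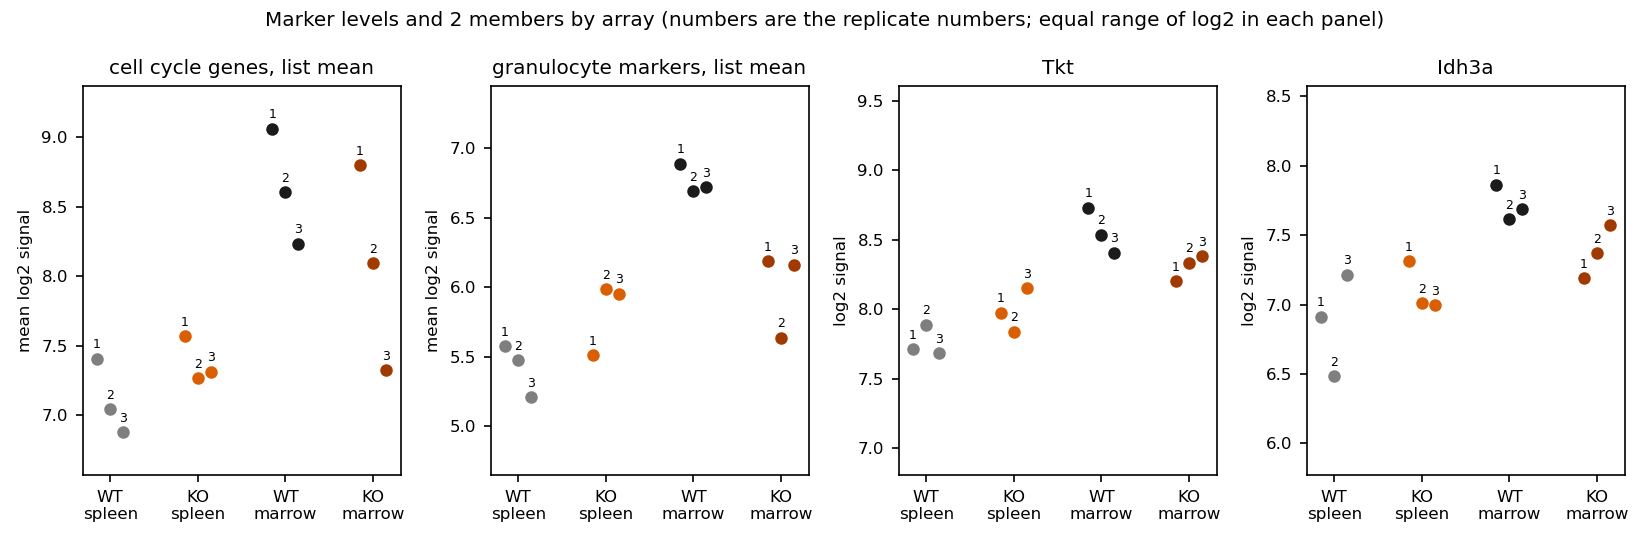
Mean log2 signal of the cell cycle list and the granulocyte list and log2 signal of Tkt and Idh3a in each array, with the replicate number above each point and the same span of log2 in all panels. Wild type marrow is highest on average in every panel, and array 1, with the highest cell cycle level in both marrow groups, is in wild type marrow also the highest for Tkt (8.73) and Idh3a (7.86), and in knockout marrow the lowest (8.20 and 7.19).

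In knockout cells the same contrast gave 0 of 39 genes in limma, beside a background of 0.318% (0.0920% higher and 0.226% lower). At an unadjusted p under 0.05 in limma were 4 genes (Slc2a3, Pfkp, Tpi1 and Pgk1), with no share of all tested genes given here. The arrays were fully separate for 10 of the 39, against 16.3% of all tested genes. The median of the 39 genes was 0.11, beside -0.01 for all tested genes. Tkt read 7.98, 7.84 and 8.15 in knockout spleen against 8.20, 8.34 and 8.38 in marrow, a difference of 0.18 ± 0.11 (adjusted p = 0.687), and the groups did not overlap. Pgk1 read 8.70, 8.62 and 8.71 against 9.26, 9.14 and 8.94 (0.33 ± 0.13, adjusted p = 0.448), also without overlap. Idh3a read 7.31, 7.01 and 6.99 against 7.19, 7.37 and 7.57 (0.38 ± 0.20). Pfkp pointed the other way at -0.43 ± 0.12 (adjusted p = 0.249). The difference between the genotypes in this contrast is the same number as the difference between the tissues in the knockout effect, and it did not pass for any of the 39 genes. For Tkt it was -0.68 ± 0.16, with an unadjusted p of 0.00136 and an adjusted p = 0.255. The tissue contrasts share their arrays with the knockout contrasts. The high wild type marrow level of Pgam1 thus enters its fall in knockout marrow as well as its rise in wild type marrow. The low wild type spleen level of Pgls likewise enters its rise in knockout spleen and its higher level in wild type marrow.

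A further 72 genes of these pathways, outside the 46, were listed for the purpose, and 43 of them were tested in the same fit. Of the 43 tested, 6 rose and 4 fell over both tissues, 2 rose and 1 fell in spleen, and 1 rose and 2 fell in marrow. These are 23.3%, 6.98% and 6.98%, beside backgrounds of 19.1%, 9.11% and 8.65%. Pgm2, a mutase of sugar phosphates, had the largest change. It read 7.67, 7.68 and 7.63 in wild type spleen, 6.94, 7.18 and 7.23 in knockout spleen, 7.97, 7.92 and 7.62 in wild type marrow and 7.02, 7.04 and 6.73 in knockout marrow. No knockout array reached a wild type array, and Pgm2 fell by 0.75 ± 0.09 over both tissues (adjusted p = 9.22e-05). The deoxyribose-phosphate aldolase Dera fell by 0.51 ± 0.12 and the ribose-phosphate kinase Prps1 by 0.41 ± 0.12. Gapdhs, the sperm form of glyceraldehyde-phosphate dehydrogenase, rose by 0.68 ± 0.13 from a low signal (mean 6.17). Between marrow and spleen in wild type 0 of the 43 passed in limma, with a median of 0.06.

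Among 26 regulators of glucose metabolism, 22 were tested, and over both tissues Myc and Ppargc1a rose and Foxo1 fell. These are 3 of 22 (13.6%), beside a background of 19.1%. Myc, a transcription factor that drives glycolytic genes and cell growth, read 9.27, 9.37 and 9.76 in wild type spleen and between 10.62 and 11.03 in the 9 arrays of the other groups. It was higher by 1.195 ± 0.12 in knockout than in wild type spleen (adjusted p = 7.34e-05) and by 1.22 ± 0.12 in wild type marrow than in wild type spleen (adjusted p = 0.000553). In marrow the Myc means were close, at 10.74 in wild type and 10.93 in knockout. Ppargc1a, a coactivator of mitochondrial genes, rose by 0.83 ± 0.14 over both tissues (adjusted p = 0.00112). Foxo1, a transcription factor that insulin-like signals switch off, fell by 0.31 ± 0.08 (adjusted p = 0.013). In the wild type tissue contrast Txnip, which lowers glucose uptake, fell by 0.59 ± 0.14 in marrow (adjusted p = 0.0299) and Arnt, the partner of HIF-1 alpha, by 0.49 ± 0.12 (adjusted p = 0.0322). Hif1a, Mtor and Srebf2 did not pass in any comparison, with 0.17, 0.18 and 0.08 over both tissues.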

How the data were processed

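The deposited table holds 35556 probe sets by 12 Affymetrix arrays as log2 signals, made by the authors with Affymetrix Expression Console and RMA per the submitters' processing notes. RMA normalizes quantiles over arrays and compresses differences at low signal. Their versions and the genome build: not given in the sources used here. Symbols came from the platform annotation (21789 probe sets with 1 symbol, 1621 with several, 12146 with none), and 21698 matched the RefSeq gene table of GRCm38.p6 by gene identifier. For each symbol the probe set with the highest mean was kept, and a gene was tested if its mean passed the 40th percentile (5.49). The model held 4 group means and the run of array numbers, and was run with lmFit and eBayes of limma 3.58.1 under R 4.3.3 (residual degrees of freedom 7, prior 4.74). Tests are two-sided, p-values were Benjamini-Hochberg adjusted over all 11963 tested genes and the threshold was 0.05. The steps were tested on simulated data. Genes that passed in any of the 6 comparisons are given in every array, the rest by range and count. Of the other pathway genes the 4 with the largest pooled change among those called are named, and of the regulators Hif1a, Myc, Mtor, Txnip, Srebf2 and any called gene. Promoter windows and microRNA sequences are from RefSeq, and protein sequences were not analysed here. The members and lists were chosen with earlier results of these data known. Arrays carry no read depth, so their number limits precision. The deviations of same-numbered arrays from their group means correlated between -0.02 and 0.24, not above 0.1 for every pair, so the numbers were not taken to pair the arrays.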

Additional observations from a re-analysis of the deposited data

How the results depend on the processing

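None of the calls reversed under the alternatives run. Over the 22 calls, 357 alternative values kept the call and 155 lost it. Leaving out 1 array in turn gave 1 to 4 genes in spleen (4 with all arrays), 1 to 3 in marrow (2), 5 to 9 with the tissues pooled (8), 1 to 7 for the tissue contrast in wild type (8) and 0 in the interaction and between tissues in knockout. The replicate block, with the replicate number of the labels as a block, gave 2 genes in spleen and otherwise changed no count by over 1.5 times. Without the run covariate marrow gave 5 genes, and with marrow fitted alone and also without that covariate 4. The run term itself passed for 0 genes in limma. Without a filter spleen gave 2 and marrow 1, and with the mean of a gene's probe sets marrow gave 1. Quantile normalization applied again gave 1 in marrow and 5 between tissues in wild type, and median centring also gave 5 there. The granulocyte level as a covariate left 0 in spleen, 1 in marrow, 3 with the tissues pooled and 0 for the wild type tissue contrast, and the cell cycle level left 0 there. Leaving out wild type and knockout marrow 1 together, chosen after seeing the data, gave 1 in marrow, 5 with the tissues pooled and 2 for the wild type tissue contrast. The cause of these changes was not tested.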
